A study of Mus musculus with 12 samples.

Results

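The libraries described here were made from thymic epithelial cells (TEC) of Aβ0/0 mice, in which H2-Ab1, the β chain of the MHC class II (MHCII) molecule I-A, is disrupted. They were chosen by genotype and sorted subset as labelled, and comprised 6 of the 12 libraries of the series: 3 of cortical TEC (cTEC) and 3 of medullary TEC (mTEC). The other 6 libraries held the same subsets of wild-type (WT) C57BL/6 mice and are used only as a reference. Each library came from a pool of 5 to 10 thymi of mice aged 4 to 6 weeks, and the RNA was poly-A selected and amplified with a SMART-Seq low input kit. By the study's methods, both sorts took Epcam-positive cells that lacked CD45. Positive Ly51 without UEA1 binding gave the cTEC gate, and UEA1 binding without Ly51 gave the mTEC gate, UEA1 being a lectin that reads a sugar and not the product of a single gene. Antibodies to MHCII were part of the same stain. Both subsets carry the disruption, which is inherited and so is shared by the other MHCII-expressing cells of these mice, and the strain background of the Aβ0/0 colony was not given in the sources used here. Pools, and not single mice, were the replicates, so every p-value measures the spread between 3 pools of each subset.

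The thymic cortex and medulla are built by epithelial cells with separate duties. Cortical TEC attract progenitors, drive T lineage commitment through Notch and present a special set of self-peptides, made by the thymoproteasome and by lysosomal proteases, for positive selection. Medullary TEC attract the selected cells through CCR7 ligands and, under the control of Aire and Fezf2, transcribe genes of peripheral tissues so that T cells reacting with them can be removed or diverted. Medullary maturation depends on signals from developing lymphocytes through RANK, CD40 and the lymphotoxin β receptor, which act through NF-κB, and the contact of CD4+ thymocytes with MHCII on the mTEC surface is part of that exchange.

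The H2-Ab1 transcript itself was still abundant in the Aβ0/0 libraries. Summed over its transcripts it reached 3153, 3956 and 3491 TPM (a level scaled to transcript length and to the library) in the cTEC pools and 2469, 3541 and 3177 TPM in the mTEC pools, below the WT means of 9282 TPM in cTEC and 11715 TPM in mTEC. The levels of both Aβ0/0 subsets overlapped, and the difference of mTEC over cTEC was 0.00 ± 0.32 on the log2 scale (SE; edgeR adjusted p = 1). The position of the disruption was not given in the sources used here, so reads outside it cannot check the genotype. Cd74, the invariant chain that guides MHCII to the lysosome, stood at 14406, 16270 and 16678 TPM in cTEC and at 9539, 15035 and 14888 TPM in mTEC, with a log2 difference of -0.02 ± 0.33. None of the 13 genes of the MHCII list was called between the subsets by edgeR, 5 had an unadjusted p under 0.05, and DESeq2 called 1 higher in mTEC and 3 higher in cTEC. Ciita, the master regulator of the locus, had a log2 difference of -0.35. H2-DMa, a subunit of the peptide exchange factor, stood at 568, 563 and 596 TPM in cTEC and 125, 253 and 151 TPM in mTEC without overlap (log2 difference -1.39 ± 0.38, adjusted p = 0.0865). It passed in the blocked fit, with the replicate number as a block on the assumption that libraries of the same number came from 1 pool of mice (adjusted p = 0.0342), as did its partner chain H2-DMb1 (log2 difference -0.86, 0.0387). H2-Oa, a chain of the inhibitor of that exchange factor, passed with the block in the opposite direction (0.97, 0.0488).

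Across the genome, 15687 genes had enough reads to be tested between the Aβ0/0 subsets with edgeR's quasi-likelihood test, and 541 of them were called higher in mTEC and 337 higher in cTEC at an adjusted p under 0.05. The calls made up 5.6% of the tested genes, 3.45% toward mTEC and 2.15% toward cTEC, and they are the background for the counts of listed genes given here. Each call had all 3 libraries of a subset above all 3 of the other, a pattern that 28.0% of tested genes had. The median log2 difference of all tested genes was 0.03. Estimated counts summed to between 24897011 and 36139815 per library. Gene levels correlated at 0.901 to 0.925 among the cTEC libraries, 0.853 to 0.870 among the mTEC libraries and 0.748 to 0.822 between subsets (Pearson's r across genes, a description). At 1 common depth of 24775724 counts, cTEC libraries held 16690, 15247 and 14797 genes with at least 5 counts and mTEC libraries 17798, 15839 and 15896. The ranges overlapped, and the mean difference of 933 genes had a two-sided permutation p of 0.4 (exact), and with 3 against 3 libraries that test cannot go below 0.1. The difference was 290 genes without mTEC 1, 543 without cTEC 3 and 1489 without cTEC 1. By the study's yields, fewer cTEC than mTEC were sorted in every Aβ0/0 replicate, and the part of cell input was not tested.

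The surface and blood-cell genes of the sort were read next. Epcam, the epithelial adhesion molecule, was at 354, 325 and 366 TPM in cTEC and 771, 637 and 634 TPM in mTEC (log2 difference 1.17 ± 0.21, adjusted p = 0.0223, up to 0.0963 with single libraries left out, the highest without cTEC 3). Enpep, which encodes Ly51, was at 41.1, 26.5 and 23.5 TPM in cTEC and 2.42, 5.25 and 0.0434 TPM in mTEC, without overlap. It was not called by edgeR (log2 difference -3.31 ± 1.19, adjusted p = 0.187) and was called higher in cTEC by DESeq2 (adjusted p = 0.0220). Ptprc, which encodes CD45, was at 40.0, 18.2 and 41.3 TPM in cTEC against 2.35, 4.46 and 3.79 TPM in mTEC. It was called higher in cTEC (log2 difference -2.98 ± 0.56, adjusted p = 0.0264), with an adjusted p of 0.0643 with the replicate number as a block and of up to 0.0916 with single libraries left out (the highest without mTEC 3).

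Ptprc was not alone among blood-cell genes. The summed level of 16 thymocyte genes was 1034, 1256 and 919 CPM (counts scaled to a common library total) in the cTEC libraries and 118, 77.1 and 186 CPM in the mTEC libraries, 8.43-fold higher in cTEC without overlap (exact permutation p = 0.1, the smallest possible). None of the 16 was at 0 in all 6 libraries, and Dntt, Cd8b1, Ptprc, Lck and Lat were called higher in cTEC (1 of the list in the blocked fit, and from 1, without cTEC 2, to 5, without mTEC 1, with a library left out). The opposite held for 15 genes of dendritic cells, macrophages and B cells, which summed to 14.0, 52.9 and 31.7 CPM in cTEC and 723, 167 and 121 CPM in mTEC. Lyz2, the lysozyme of macrophages, held 86.1% of that sum, the defining markers Clec9a and Adgre1 had no count in any library, and none of the 9 tested was called by edgeR (4 at an unadjusted p under 0.05, and 4 by DESeq2). Fibroblast and mural genes summed to 2812, 2961 and 3492 CPM in cTEC and 1284, 1997 and 1475 CPM in mTEC, led by the matrix proteoglycan Dcn with 57.4% of the sum. Within that list 3 genes were called higher in cTEC (1 in the blocked fit, 1 or 2 with a library left out), while Rgs5, a gene of mural cells, was at 4.48, 6.14 and 22.5 CPM in cTEC and 232, 589 and 328 CPM in mTEC and was called higher in mTEC (log2 difference 5.11 ± 0.74, adjusted p = 0.0105, at most 0.0472 with a library left out). The sums overlapped for endothelium (40.7 to 50.6 CPM in cTEC, 48.1 to 51.4 CPM in mTEC), erythroid cells (0.278 to 169 CPM and 81.3 to 422 CPM) and granulocytes (12.8 to 137 CPM and 88.5 to 312 CPM, Retnlg at 0 throughout), with exact permutation p of 0.3, 0.2 and 0.2. Ltf held 66.1% of the granulocyte sum. Of the 9 granulocyte genes 6 were tested, and S100a8 and S100a9, the calprotectin chains, were called higher in mTEC whichever library was left out. The 4 others tested were not called, and 3 of the 9 had at most 3 counts in every Aβ0/0 mTEC library. In bulk libraries, fewer cells of a type and less RNA per cell cannot be told apart, and the part of these cells in the TEC differences was not tested.

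All 6 markers that define the subsets separated the Aβ0/0 libraries in the direction of the labels. Aire, the regulator of promiscuous transcription, was at 1.15, 0.199 and 0.283 TPM in cTEC and at 111, 56.0 and 65.2 TPM in mTEC. Fezf2, its counterpart for a further set of tissue genes, was at 2.27, 4.77 and 5.11 TPM in cTEC and at 142, 161 and 127 TPM in mTEC. In both cases the lowest mTEC library stood far above the highest cTEC library. The log2 differences were 7.69 ± 0.71 for Aire (edgeR adjusted p = 0.00283) and 5.36 ± 0.47 for Fezf2 (0.00219).

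The cortical markers mirrored this. Prss16, the thymus-specific serine protease of the MHCII peptide route, was at 3190, 3949 and 2597 TPM in cTEC and 74.2, 56.9 and 146 TPM in mTEC. Psmb11, the thymoproteasome subunit β5t, was at 249, 442 and 188 TPM in cTEC and 6.18, 5.84 and 9.80 TPM in mTEC. Ly75, the endocytic receptor DEC-205, was at 103, 68.5 and 54.0 TPM in cTEC and 8.06, 4.81 and 5.16 TPM in mTEC. No cTEC library came near an mTEC library for any of them. Ccl25, the chemokine that draws CCR9+ progenitors, was at 2473, 5975 and 2633 TPM in cTEC and 270, 141 and 213 TPM in mTEC, again without overlap. The log2 differences of mTEC over cTEC were -5.12 ± 0.50 for Prss16 (adjusted p = 0.00364), -5.19 ± 0.52 for Psmb11 (0.00373), -3.43 ± 0.30 for Ly75 (0.00219) and -4.07 ± 0.51 for Ccl25 (0.0065). The 6 markers were called in every fit that left out 1 library, in the blocked fit and when tested against a 2-fold change. In WT libraries the same markers had log2 differences of 6.51, 5.53, -4.93, -4.36, -3.64 and -1.88 in the order given here, and all were called.

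**Figure D1:**
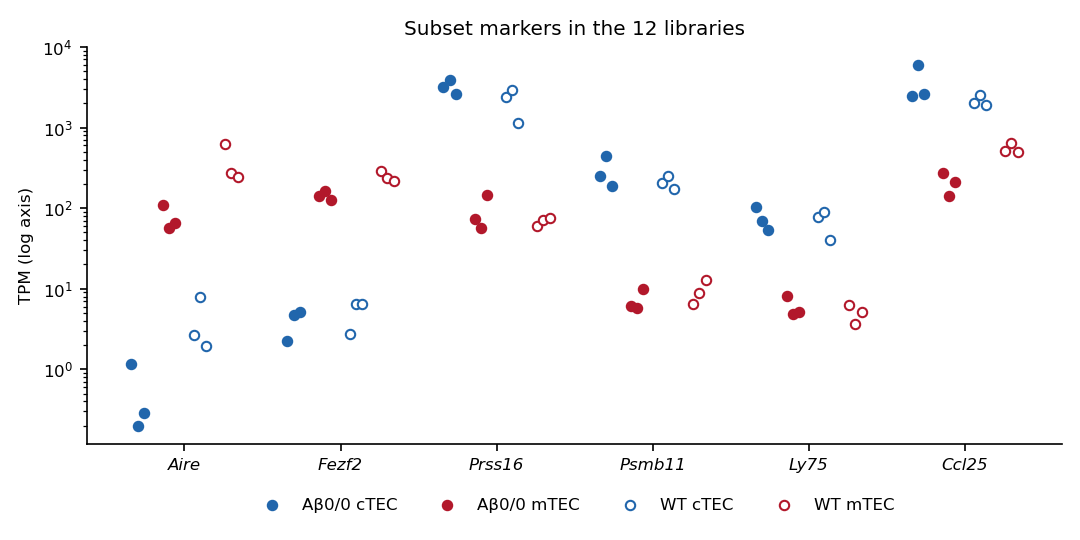
Levels of the 6 subset markers in the 12 libraries, in TPM on a log axis, with 1 point per library (filled Aβ0/0, open WT, blue cTEC, red mTEC). In Aβ0/0 mice Aire spans 0.199 to 1.15 TPM in cTEC and 56.0 to 111 TPM in mTEC, and no marker overlaps between subsets.

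The upstream sequences of a cortical pair and of Aire are shown because the forkhead factor FOXN1, the master regulator of TEC in both compartments, is known to bind the core GACGC. The sequences are the 250 bases before the annotated start, on the gene's strand, from RefSeq (GRCm38.p6), with each GACGC, or its reverse complement GCGTC, in capitals. Psmb11 at chr14:54625060-54625309 (plus strand) held 2 matches, the first of the 2 Ccl25 starts at chr8:4324960-4325209 (plus strand) held 1, and Aire at chr10:78043611-78043860 (minus strand) held 1.
Psmb11: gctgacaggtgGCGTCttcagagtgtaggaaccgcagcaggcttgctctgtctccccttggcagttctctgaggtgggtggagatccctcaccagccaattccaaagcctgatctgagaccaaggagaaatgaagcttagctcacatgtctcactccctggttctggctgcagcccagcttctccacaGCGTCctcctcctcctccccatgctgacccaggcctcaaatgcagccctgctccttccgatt
Ccl25: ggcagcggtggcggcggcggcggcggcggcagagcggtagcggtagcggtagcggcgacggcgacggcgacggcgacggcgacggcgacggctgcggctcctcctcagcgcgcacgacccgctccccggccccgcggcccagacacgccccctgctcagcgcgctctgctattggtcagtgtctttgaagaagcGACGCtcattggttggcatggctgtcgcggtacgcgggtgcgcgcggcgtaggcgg
Aire: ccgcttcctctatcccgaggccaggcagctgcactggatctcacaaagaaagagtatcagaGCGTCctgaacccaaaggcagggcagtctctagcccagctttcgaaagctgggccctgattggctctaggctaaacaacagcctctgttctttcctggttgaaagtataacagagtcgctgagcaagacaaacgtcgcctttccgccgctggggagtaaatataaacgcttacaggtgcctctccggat
Of 27025 genes in the promoter table, 24.85% held a match in this window. Among the cortical genes called in Aβ0/0 mice, 11 of 13 were in the table and 5 of those had one (Psmb11, Ccl25, Cxcl12, Kitl and Pax1), and among the medullary genes called, 11 of 12 were in the table and 3 had one (Aire, Fezf2 and Tnfrsf11a). A match describes the letters only, and binding was not measured.

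Of the 20 genes listed for cortical identity, all were tested, 13 were called higher in cTEC, none higher in mTEC (none at an unadjusted p under 0.05 and none by DESeq2), and 7 did not pass. Against this stands the background of 2.15% called higher in cTEC among all genes, and the median log2 difference of the list was -2.81. The count was 7 without cTEC 2 or without mTEC 2, 8 without cTEC 3, and at most 10 with a library left out. Cxcl12, the ligand that retains CXCR4+ progenitors, was at 1450, 1790 and 1818 TPM in cTEC and 59.1, 103 and 176 TPM in mTEC. Pax1, a transcription factor of the pharyngeal pouches from which the thymus forms, was at 461, 422 and 477 TPM in cTEC and 82.7, 62.9 and 75.2 TPM in mTEC. Both were separated by more than the spread of either subset, with log2 differences of -3.71 ± 0.47 (adjusted p = 0.00685) and -2.47 ± 0.21 (0.00216), and were called whichever library was left out.

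Further niche genes of the cortex followed with larger spread. Tbata, a thymus and testis protein made by TEC, was at 2646, 7178 and 3438 TPM in cTEC against 212, 309 and 390 TPM in mTEC (log2 difference -3.63 ± 0.56, adjusted p = 0.0135, 0.0542 without mTEC 2 and 0.0519 without mTEC 3). Kitl, the stem cell factor needed by early thymocytes, was at 62.6, 63.9 and 48.2 TPM against 2.58, 2.36 and 7.19 TPM (-3.22 ± 0.51, 0.0142, with 0.0537 without cTEC 2 and 0.0564 without mTEC 2). For both, every cTEC pool exceeded every mTEC pool several times over. Dll4, the Notch ligand that commits progenitors to the T lineage, was at 42.7, 29.5 and 29.7 TPM in cTEC and 2.95, 0.917 and 0.206 TPM in mTEC (-4.48 ± 0.82, 0.0244). Cd83, a surface protein that stabilises MHCII, was at 343, 458 and 255 TPM in cTEC and 1.13, 12.4 and 0.865 TPM in mTEC (-5.85 ± 1.20, 0.0351). With single libraries left out their adjusted p rose to at most 0.0891 (Dll4, without mTEC 2) and 0.0993 (Cd83, without cTEC 2).

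Foxn1, the master TEC regulator, was higher in cTEC of Aβ0/0 mice. It was at 138, 114 and 95.6 TPM in cTEC and 35.0, 14.5 and 45.7 TPM in mTEC, with a log2 difference of -1.70 ± 0.38 (adjusted p = 0.0429, 0.0895 with the replicate number as a block, up to 0.134 without cTEC 2). In WT the log2 difference of Foxn1 was -0.26 and not called, and the change of the contrast between genotypes was not called either. Ctsl, the cathepsin that makes cortical MHCII ligands, was at 6131, 7459 and 5256 TPM against 1212, 1466 and 1695 TPM (-1.79 ± 0.40, 0.0446, up to 0.119 without mTEC 3), and Krt18, a simple-epithelium keratin of the cortex, at 3479, 4347 and 3507 TPM against 1590, 1152 and 1371 TPM (-1.29 ± 0.26, 0.0337, up to 0.117 without mTEC 3). Its partner Krt8 had a log2 difference of -0.91 (adjusted p = 0.129). The cytokine Il7 was at 169, 210 and 292 TPM in cTEC and 132, 97.2 and 176 TPM in mTEC, overlapping (log2 difference -0.64, adjusted p = 0.347), and Slc46a2, a solute carrier of TEC, had a log2 difference of -0.63. Bmp4 (-3.15), Eya1 (-0.18) and Tgfb2 (1.12) did not pass either.

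**Figure D2:**
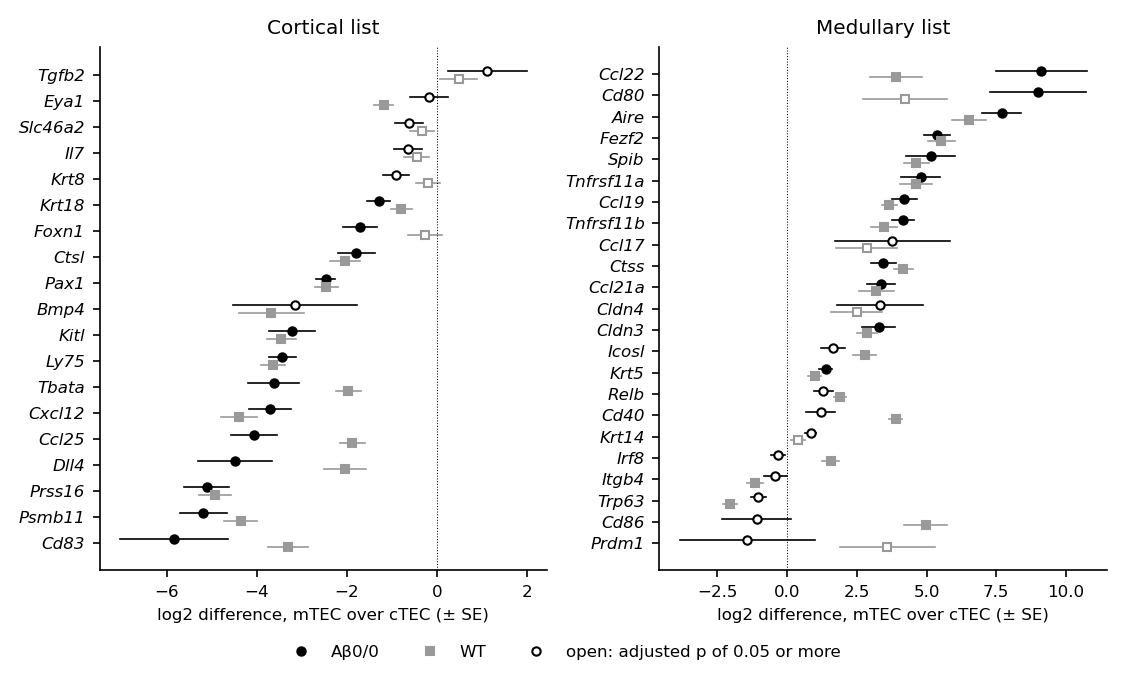
Log2 difference of mTEC over cTEC with its SE for the tested members of the cortical list (19 of 20 shown) and the medullary list (23), black circles Aβ0/0, grey squares WT, open symbols an adjusted p of 0.05 or more. Cortical members run from -5.85 (Cd83) to 1.12 (Tgfb2) and medullary members up to 9.10 (Ccl22) in Aβ0/0 mice, and Cd40, Cd86 and Irf8 stand away from their WT values.

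Of the 24 genes listed for medullary identity, 23 were tested, 12 were called higher in mTEC and none higher in cTEC (1, Trp63, at an unadjusted p under 0.05 and by DESeq2), with a median log2 difference of 3.31 over those tested. The background is 3.45% called higher in mTEC. The count was 7 without cTEC 2 or without cTEC 3 and at most 9 with a library left out. Xcl1, the chemokine that draws XCR1+ dendritic cells, was too low to test. Receptors of the maturation signal were among those called. Tnfrsf11a, which encodes RANK, was at 4.35, 0.598 and 1.89 TPM in cTEC and 67.7, 37.5 and 76.3 TPM in mTEC (log2 difference 4.78 ± 0.68, adjusted p = 0.00997). Its soluble decoy Tnfrsf11b, osteoprotegerin, was at 3.22, 2.21 and 3.92 TPM in cTEC and 77.8, 32.0 and 39.0 TPM in mTEC (4.16 ± 0.39, 0.00304). Neither overlapped, and both were called whichever library was left out.

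The CCR7 ligands that bring selected thymocytes into the medulla were also higher in mTEC. Ccl19 was at 59.7, 79.1 and 121 TPM in cTEC and 978, 1663 and 1406 TPM in mTEC (log2 difference 4.20 ± 0.46, adjusted p = 0.00445). Ccl21a, whose near-identical copies make the split of reads uncertain, was at 1574, 3989 and 3370 TPM in cTEC and 20510, 30968 and 29646 TPM in mTEC (3.37 ± 0.51, 0.0125, 0.059 without cTEC 3). Every mTEC pool stood above every cTEC pool for both ligands. Ctss, the medullary MHCII cathepsin, was at 7.77, 15.3 and 13.6 TPM in cTEC and 108, 137 and 106 TPM in mTEC (3.45 ± 0.45, 0.00767). The cortical and medullary cathepsins of the MHCII route, Ctsl and Ctss, were called in opposite directions.

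The remaining medullary calls were Spib (log2 difference 5.15 ± 0.88, adjusted p = 0.0187, up to 0.0774 without cTEC 2), the transcription factor of microfold-like cells, Cldn3 (3.28 ± 0.59, 0.0219, up to 0.083 without cTEC 3), a tight junction claudin, and Krt5 (1.38 ± 0.24, 0.0185, up to 0.0937 without cTEC 3), the basal keratin. Krt5 was abundant on both sides, at 702, 397 and 421 TPM in cTEC and 1258, 1041 and 1059 TPM in mTEC. Cd80, a costimulatory ligand of mature mTEC, was at 0, 0 and 0.024 TPM in cTEC and 7.19, 2.79 and 6.31 TPM in mTEC, at least 76.8-fold higher in mTEC against a floor of 3 counts per library (adjusted p = 0.0273, 0.068 with the block, up to 0.11 without cTEC 2). Ccl22, a CCR4 ligand, was at 0.185, 0 and 0.0181 TPM in cTEC and 3.74, 13.6 and 4.56 TPM in mTEC, at least 147-fold higher, or 64.9-fold without mTEC 2 (0.0221, 0.0788 with the block, up to 0.0816 without mTEC 2). Both were low genes seen almost only in mTEC.

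Several genes of the medullary list were not called between the Aβ0/0 subsets. Cd40, the receptor for CD40 ligand on CD4+ thymocytes, was at 46.0, 57.0 and 27.8 TPM in cTEC and 55.0, 120 and 73.0 TPM in mTEC, overlapping (log2 difference 1.20 ± 0.52, adjusted p = 0.279). Cd86 was at 0.284, 1.72 and 0.268 TPM in cTEC and 0.063, 0.246 and 0.828 TPM in mTEC (-1.09 ± 1.24, 0.727), and Irf8, a transcription factor, at 66.3, 68.1 and 60.6 TPM in cTEC and 63.0, 37.4 and 39.3 TPM in mTEC (-0.34 ± 0.26, 0.575). In CPM, the scale nearer to the test, every cTEC library of Irf8 lay above every mTEC library, at 108, 152 and 105 CPM against 104, 99.2 and 85.5 CPM. In WT, all of Cd40 (3.88), Cd86 (4.97) and Irf8 (1.56) were called higher in mTEC on the log2 scale. The change of the contrast between genotypes was -2.66 for Cd40 (unadjusted p = 0.00082), -6.02 for Cd86 (0.00386) and -1.89 for Irf8 (0.00035), and none passed after adjustment (edgeR adjusted p = 0.350, 0.390 and 0.266). Icosl (log2 difference 1.64, adjusted p = 0.0671), Relb (1.30, 0.0835), Krt14 (0.84, 0.0649) and Trp63 (-1.04, 0.0717) did not pass. Nor did Cldn4 (3.31, 0.321), Ccl17 (3.77, 0.412), Itgb4 (-0.43, 0.672) and Prdm1 (-1.43, 0.824).

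The TNF receptor and NF-κB list of 23 genes had 5 called higher in mTEC and 1 higher in cTEC, where 3.45% and 2.15% of all genes were. The median log2 difference was 0.76, and 2 or 3 were called higher in mTEC with a library left out (3 without mTEC 2). Besides both RANK pathway genes, Nfkb2, the precursor of p52 in the noncanonical route, was at 52.5, 23.4 and 34.6 TPM in cTEC and 109, 53.6 and 101 TPM in mTEC (log2 difference 1.47 ± 0.30, adjusted p = 0.0349). Birc3 (1.43, 0.0306) and Nfkbia (1.18, 0.0393), a ubiquitin ligase and an inhibitor induced by the pathway, were higher in mTEC too, while Nfkb1, the precursor of p50, fell by 1.27 on the log2 scale in mTEC (0.0498). With single libraries left out their adjusted p reached 0.144 (Nfkb2, without cTEC 3), 0.128 (Birc3, without cTEC 3), 0.155 (Nfkbia, without cTEC 3) and 0.134 (Nfkb1, without cTEC 2). With the replicate number as a block Birc3 (0.0597) and Nfkb1 (0.0738) were not called.

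Of 16 chemokine genes, 15 were tested, 8 were called higher in mTEC and 3 higher in cTEC (Ccl25, Cxcl12 and Cx3cl1). Of all genes, 3.45% and 2.15% were called in those directions. The blocked fit called 4 higher in mTEC, and leaving out a library gave from 3 (without cTEC 3) to 6 (without cTEC 2). Ccl9, a CCR1 ligand, had the lowest adjusted p among them, at 0.225, 0.189 and 0.307 TPM in cTEC and 215, 53.4 and 82.2 TPM in mTEC (log2 difference 8.06 ± 0.49, adjusted p = 0.000969). Cxcl9, an interferon-induced CXCR3 ligand, was at 1.91, 1.67 and 0.0688 TPM in cTEC and 40.4, 117 and 78.3 TPM in mTEC (6.80 ± 1.05, 0.0135, 0.0545 without cTEC 1). Ccl20, Ccl6 and Ccl5 were also called, at adjusted p between 0.0422 and 0.0423, but each lost the call in the blocked fit (0.0757, 0.0736 and 0.124) and with single libraries left out (up to 0.144 for Ccl20, without cTEC 3, 0.115 for Ccl6, without mTEC 1, and 0.144 for Ccl5, without mTEC 2). Ccl20 and Ccl6 were highest in mTEC 1, at 1013 and 394 TPM, against 229 to 301 and 95.0 to 104 TPM in the other mTEC libraries. In cTEC, Cx3cl1, the membrane-bound CX3CR1 ligand, was at 209, 78.5 and 124 TPM against 49.4, 27.4 and 39.0 TPM in mTEC (-1.61 ± 0.29, 0.0212, up to 0.0757 without mTEC 3).

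Lysosomal proteases of antigen presentation were read next. Of 10 lysosomal genes, 9 were tested, Ctss and Ctsh were called higher in mTEC and Prss16 and Ctsl higher in cTEC, and the median log2 difference was -0.20. With any library left out, 1 gene of the list was called higher in cTEC. Ctsh was at 26.4, 25.8 and 10.3 TPM in cTEC and 279, 214 and 166 TPM in mTEC (log2 difference 3.63 ± 0.45, adjusted p = 0.0065), called whichever library was left out. Ctsb (-0.20) and Ctsd (-0.21), the general cathepsins, did not pass. Of the 7 catalytic proteasome subunits, Psmb11 alone was called. The immunoproteasome subunit Psmb9 was at 534, 636 and 536 TPM in cTEC and 230, 338 and 266 TPM in mTEC without overlap (-0.84, adjusted p = 0.208, 0.0373 with the block).

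Structural genes were read as keratins and junction genes. Of 16 keratins, all tested, Krt20, Krt17 and Krt5 were called higher in mTEC and Krt18 higher in cTEC, 4 in all, where 5.6% of all genes were called. The 3 became 1 without cTEC 3, mTEC 2 or mTEC 3, and Krt18 was not called when any library but cTEC 1 was left out. Krt20, a keratin of intestinal epithelium, was at 0.237, 0 and 0.021 TPM in cTEC and 43.8, 31.0 and 20.6 TPM in mTEC (log2 difference 8.92 ± 1.22, adjusted p = 0.00848). Krt17 was at 1047, 1012 and 1022 TPM in cTEC and 2394, 2341 and 2594 TPM in mTEC, a small difference with very even replicates (1.46 ± 0.24, 0.0147, up to 0.0751 without mTEC 3). Of 20 junction genes, all tested, 3 were called higher in mTEC, where 3.45% of all genes were: Cldn3, Dsg2, a desmosomal cadherin, and F11r, the junctional adhesion molecule A. The 3 became 1 without cTEC 1, cTEC 2 or mTEC 1 and none without mTEC 3. Their log2 differences were 1.66 ± 0.27 for Dsg2 (adjusted p = 0.0147, 0.061 without cTEC 1 and 0.0608 without mTEC 3) and 1.64 ± 0.28 for F11r (0.0186, up to 0.0854 without cTEC 3).

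Genes of the mimetic mTEC, cells that copy peripheral cell types, were read by lineage. Among 24 lineage transcription factors, 14 were tested and 4 were called higher in mTEC, Spib among them, and 2 without mTEC 1. Myog, the muscle regulator myogenin, was at 0, 0.0253 and 0.0553 TPM in cTEC and 163, 83.7 and 90.6 TPM in mTEC, at least 1396-fold higher (adjusted p = 0.000943). It was called whichever library was left out. Insm1, a neuroendocrine factor, was at 0.22, 0.0122 and 0.0416 TPM in cTEC and 23.8, 7.48 and 8.59 TPM in mTEC (7.51 ± 1.17, 0.0139, with 0.0548 without cTEC 3 and 0.0568 without mTEC 1).

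Microfold genes are named for the antigen-sampling cells of gut epithelium. All 11 were tested, 7 were called higher in mTEC and 10 had every mTEC library above every cTEC library, where 15.1% of all tested genes had that pattern in this direction. The median log2 difference was 4.16, the blocked fit called 4, and leaving out a library gave from 3 (without mTEC 1 or mTEC 2) to 5 calls (without cTEC 2 or mTEC 3). Ccl9, Tnfrsf11b, Spib, Ccl20 and Ccl6 are given with the chemokines and receptors. Clu, the secreted chaperone clusterin, was at 279, 252 and 294 TPM in cTEC and 867, 658 and 666 TPM in mTEC (log2 difference 1.60 ± 0.21, adjusted p = 0.00733). Tnfaip2, a protein of membrane nanotubes, was at 21.2, 22.0 and 25.5 TPM in cTEC and 140, 149 and 113 TPM in mTEC (2.09 ± 0.40, 0.0281, 0.0805 with the block, up to 0.107 without cTEC 1).

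Cornified keratinocyte genes were called higher in mTEC for 5 of 14 tested of 15, with a median log2 difference of 3.27, for 2 in the blocked fit, and for none without cTEC 1 or cTEC 2 (1 without cTEC 3, mTEC 1 or mTEC 2, 4 without mTEC 3). Spink5, a skin protease inhibitor, was at 2.78, 3.11 and 5.74 TPM in cTEC and 24.7, 69.4 and 25.7 TPM in mTEC (log2 difference 3.66 ± 0.62, adjusted p = 0.0181, up to 0.0816 without cTEC 2). Dmkn (3.04, 0.0264), Lypd3 (5.76, 0.0369), Krtdap (2.52, 0.039) and Sprr1b (adjusted p = 0.0394, at least 41.8-fold higher) were called too, and all but Krtdap (0.0457) lost the call with the replicate number as a block (0.0847, 0.138 and 0.138). With single libraries left out the adjusted p reached 0.0922 for Dmkn (without cTEC 2), 0.121 for Lypd3 (without cTEC 1), 0.144 for Krtdap (without cTEC 3) and 0.136 for Sprr1b (without cTEC 2). Tuft cell genes had 1 call of 16 tested, where 5.6% of all genes were called. It was Ltc4s, the leukotriene C4 synthase, at 29.0, 5.53 and 8.03 TPM in cTEC and 156, 51.1 and 77.7 TPM in mTEC (3.00 ± 0.70, 0.0496, up to 0.159 without mTEC 1). For several tuft genes the library numbered 1 was the highest in both subsets. Trpm5, the tuft cation channel, was at 32.3, 7.60 and 6.59 TPM in cTEC and 197, 42.4 and 24.2 TPM in mTEC (2.68 ± 1.04, 0.225), and with the replicate number as a block its adjusted p was 0.0487. The blocked fit called 5 tuft genes, also Dclk1 (0.0485), Gng13 (0.0376) and Sh2d6 (0.0232), and DESeq2 called 9.

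**Figure D3:**
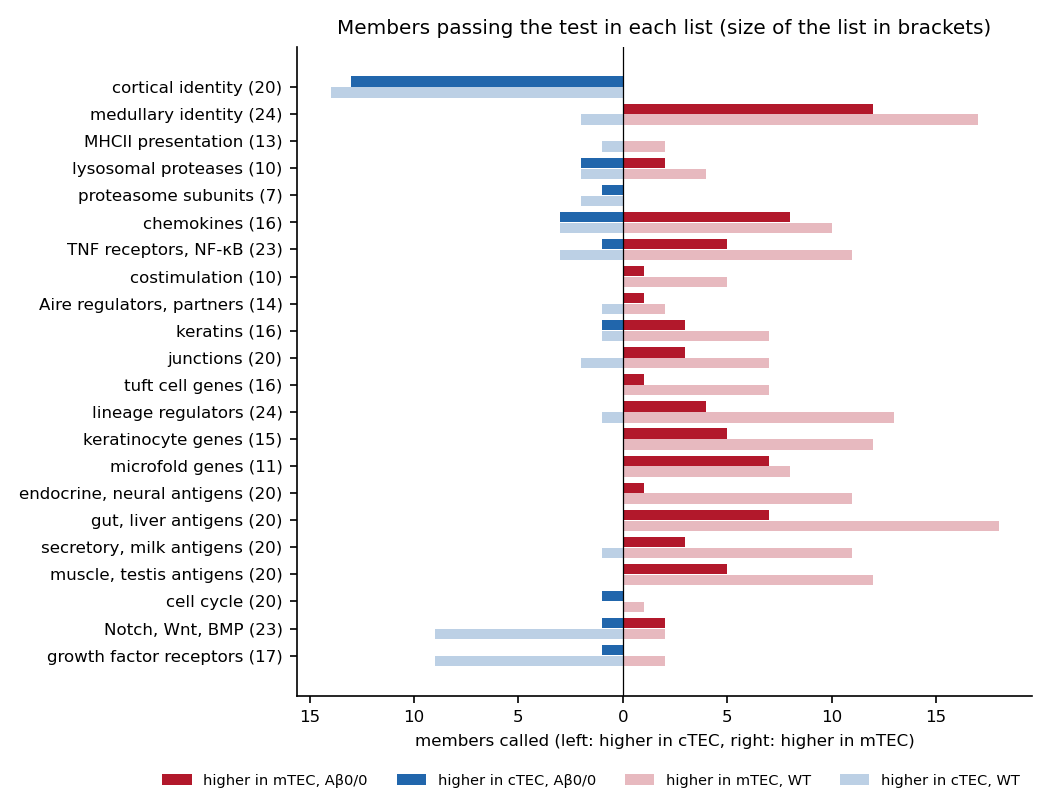
Number of members called between mTEC and cTEC in each list, to the left higher in cTEC and to the right higher in mTEC, dark bars Aβ0/0 and pale bars WT, with the size of the list in brackets. In Aβ0/0 mice the cortical list has 13 members to the left and the medullary list 12 to the right, and the gut and liver list has 7 of 12 tested in Aβ0/0 mice and 18 of 20 tested in WT, where calls were more frequent over all genes (18.0% against 3.45% toward mTEC).

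Tissue-restricted antigens, the products that mTEC show to T cells on behalf of other organs, were read as 80 genes in 4 lists. Of these, 38 were tested in Aβ0/0 mice, 16 were called higher in mTEC and none higher in cTEC by edgeR or DESeq2 (1 at an unadjusted p under 0.05). Leaving out a library gave from 9 (without mTEC 2) to 13 (without cTEC 2) calls toward mTEC, the blocked fit 11 and DESeq2 39. Counted without a test, 41 of the 80 exceeded 3 counts in all 3 Aβ0/0 mTEC libraries, 23 in 1 or 2 of them and 16 in none. In the Aβ0/0 cTEC libraries the same counts were 17, 24 and 39, and in WT mTEC they were 72, 7 and 1. The Aβ0/0 mTEC libraries held 24897011 to 31698631 counts and the WT mTEC libraries 21710319 to 33334258, and these counts of genes were not tested between genotypes. The study's sorting yields were lower for Aβ0/0 than for WT mTEC in every replicate. The part of cell input in these counts was not tested.

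Muscle genes, read for the mTEC that copy muscle, were among those called. Acta1, skeletal muscle actin, was at 0.122, 0.0792 and 0.231 TPM in cTEC and 77.5, 78.2 and 89.1 TPM in mTEC (log2 difference 9.33 ± 0.54, adjusted p = 0.000943). Ckm, muscle creatine kinase, was at 0.0205, 0.0399 and 0.0867 TPM in cTEC and 28.8, 36.7 and 45.9 TPM in mTEC (8.29 ± 0.91, 0.00445). With Actc1, cardiac actin (at least 597-fold higher, 0.00445), and Ttn, the sarcomere protein titin (4.68 ± 0.62, 0.00774), they were called whichever library was left out. With the lineage factor Myog these were the 5 called of 8 tested of the 20 muscle, eye and testis genes, and the same count held whichever library was left out and in the blocked fit.

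Of 20 gut and liver genes, 12 were tested and 7 were called higher in mTEC. In WT 20 were tested and 18 called, against backgrounds of 18.0% of all genes called higher in mTEC in WT and 3.45% in Aβ0/0 mice, and the difference between the genotypes' counts was not tested. The blocked fit called 3 and DESeq2 called 16, and leaving out a library gave from 3 (without cTEC 1, cTEC 3 or mTEC 2) to 5 (without mTEC 3). Apoa1, the main apolipoprotein of high density lipoprotein, was at 0.176, 0.648 and 0.0835 TPM in cTEC and 120, 51.3 and 40.2 TPM in mTEC (log2 difference 7.84 ± 1.00, adjusted p = 0.00685), called whichever library was left out. Tff3, the trefoil peptide of goblet cells, was at 0, 0.0943 and 0 TPM in cTEC and 1226, 86.7 and 48.6 TPM in mTEC, at least 1375-fold higher, a bound carried by mTEC 1 that is 259-fold without it (adjusted p = 0.00997, up to 0.0774 without cTEC 2). Reg3g, an antimicrobial lectin of the gut, was at 9.57, 213 and 139 TPM in cTEC and 15666, 3126 and 1535 TPM in mTEC (5.75 ± 1.33, 0.0482, 0.162 with the block, up to 0.168 without cTEC 3). Library mTEC 1 was the highest for both. The pancreatic inhibitor Spink1 (4.82, 0.0163, up to 0.0758 without cTEC 3) and the liver proteins Crp (4.91, 0.0301, up to 0.104 without cTEC 1) and Ambp (at least 149-fold higher, or 59.2-fold without mTEC 2, 0.0254, up to 0.0928 without cTEC 2) were called, and Crp (0.0523) and Ambp (0.0666) were not with the block. Ttr, the thyroid hormone carrier, had no count in cTEC and 13.3, 9.23 and 35.5 TPM in mTEC, at least 195-fold higher, or 113-fold without mTEC 3 (0.0168, 0.0703 without mTEC 3, 0.079 with the block).

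Of 20 milk, salivary and lung genes, 8 were tested and 3 called higher in mTEC, and of 20 endocrine and neural genes, 10 were tested and 1 called. Scgb1a1, the club cell secretoglobin, was at 0, 0.198 and 0 TPM in cTEC and 66.4, 301 and 41.5 TPM in mTEC, at least 498-fold higher, or 161-fold without mTEC 2 (adjusted p = 0.00992, 0.0543 without mTEC 2). The milk protein Csn2 was at 0.906, 15.9 and 1.91 TPM in cTEC and 360, 249 and 190 TPM in mTEC (log2 difference 5.46 ± 1.15, 0.0375, up to 0.12 without cTEC 3). Mucl2, a mucin-like gene, had no count in cTEC and 33.5, 17.0 and 8.15 TPM in mTEC, at least 89.5-fold higher (0.0338, 0.129 with the block, up to 0.0941 without mTEC 2). Snap25, the synaptic fusion protein, was at 0.108, 0 and 0.0553 TPM in cTEC and 41.0, 33.2 and 12.7 TPM in mTEC (9.43 ± 1.20, 0.00685), called whichever library was left out. For all 4 every mTEC library lay above every cTEC library, and the mTEC libraries of Csn2 were the closest to each other. Without mTEC 2 none of the secretory genes was called, without any other library 1 or 2 were (2 without cTEC 2), and in the blocked fit 2 were.

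**Figure D4:**
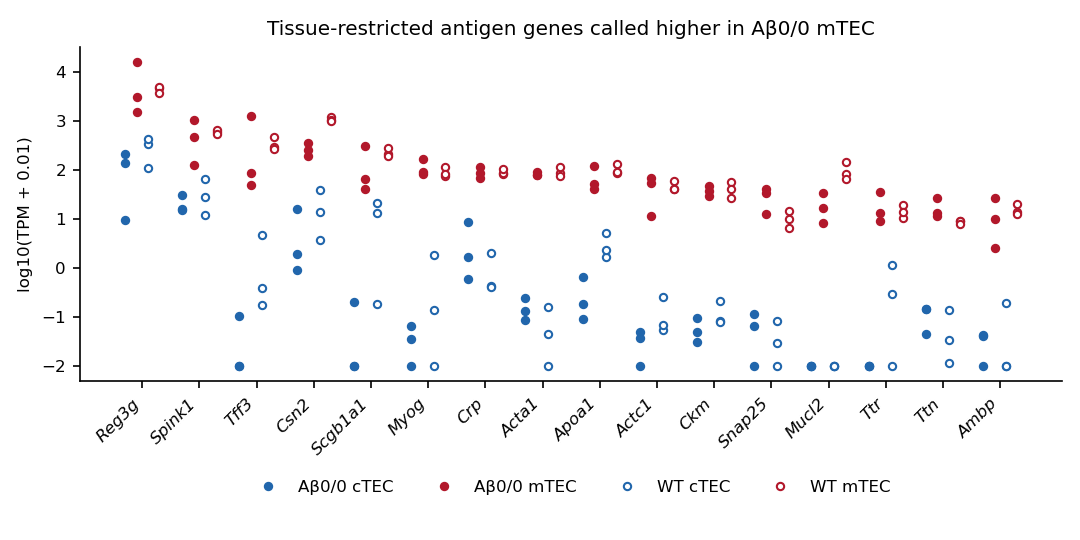
Levels of the 16 antigen genes called higher in Aβ0/0 mTEC, as log10(TPM + 0.01), with 1 point per library (filled Aβ0/0, open WT, blue cTEC, red mTEC). Acta1 lies within 77.5 to 89.1 TPM in the 3 Aβ0/0 mTEC libraries, while Tff3 spreads from 48.6 to 1226 TPM.

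Genes of growth control were read as 3 lists. Of 20 cell cycle genes, all tested, 1 was called (5.6% over all genes). Ccnb2, cyclin B2, was called higher in cTEC, at 28.0, 48.3 and 33.8 TPM against 5.97, 5.06 and 7.19 TPM in mTEC (log2 difference -2.44 ± 0.51, adjusted p = 0.0358, 0.0725 with the block, up to 0.178 without cTEC 2), and the list's median was -0.66. The proliferation antigen Mki67 (-0.46) and Top2a (-1.35) did not pass, and Ube2c, a ubiquitin-conjugating enzyme of mitosis, passed with the block only (-2.63, adjusted p = 0.0829, 0.0444 with the block). The thymocyte genes given above were higher in the same subset as Ccnb2. Of 23 genes of Notch, Wnt and BMP signalling, 22 were tested, and with a library left out 1 or 2 were called higher in mTEC and none to 2 higher in cTEC (2 without mTEC 1). Dll4 was called higher in cTEC, and the Wnt ligand Wnt10a and the receptor Fzd2 higher in mTEC. Of all genes, 2.15% and 3.45% were called in those directions. Wnt10a was at 5.87, 4.14 and 6.05 TPM in cTEC and 33.8, 18.5 and 26.6 TPM in mTEC (2.59 ± 0.38, 0.0105), called whichever library was left out, and Fzd2 rose by 1.80 ± 0.32 (0.0209, up to 0.0876 without cTEC 2). Of 17 growth factor receptors and genes of immature epithelium, 1 was called, near the share of 5.6% over all genes. It was Meis1, a homeobox factor of TEC progenitors, higher in cTEC (-1.68 ± 0.29, 0.0187, up to 0.0807 without mTEC 3).

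Costimulatory ligands gave 1 call of 8 tested of 10, Cd80, where 5.6% of all genes were called. Of 14 regulators and partners of Aire, all tested, 1 was called against the same background. It was Irf4, at 0, 0 and 0.00815 TPM in cTEC and 8.28, 0.604 and 4.14 TPM in mTEC (at least 139-fold higher, or 74.4-fold without mTEC 1, adjusted p = 0.0223, 0.0524 with the block, up to 0.0851 without cTEC 2). The list's median log2 difference was -0.18. Sirt1, the deacetylase that acts on Aire, was at 16.4, 16.8 and 14.4 TPM in cTEC and 18.8, 17.0 and 18.5 TPM in mTEC, a difference of 0.18 ± 0.38 on the log2 scale that did not pass.

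Over the 23 lists of epithelial genes there were 339 distinct members, of which 282 passed the filter on low counts. Of those tested, 54 were called higher in mTEC (19.1%, against 3.45% of all genes) and 17 higher in cTEC (6.03%, against 2.15%). Of the 54, 19 were called whichever library was left out, 6 lost the call with 1 or 2 libraries left out and 29 with 3 or more, and 16 lost it in the blocked fit. Of the 17, those counts were 6, 2, 9 and 3. With members gained, the blocked fit called 44 higher in mTEC and 20 higher in cTEC. Leaving out 1 library lowered the 54 to between 28 (without cTEC 3) and 34 (without mTEC 3), and the 17 to between 8 (without cTEC 3 or mTEC 2) and 12 (without mTEC 3).

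Set beside WT mice, the called members kept their direction. Of the 54 called higher in Aβ0/0 mTEC, 50 were called so in WT as well, and of the 17 called higher in cTEC, 15 were. In WT, where 18667 genes were tested, 26.8% of all genes were called, 18.0% higher in mTEC and 8.81% higher in cTEC. Over all genes, 441 of the 541 mTEC calls (81.5% of them and 25.9% of the 1704 WT calls that were also tested in Aβ0/0 mice) and 282 of the 337 cTEC calls (83.7% of them and 17.3% of the 1630) were shared between genotypes. A further 1648 WT calls toward mTEC and 15 toward cTEC were too low to test in Aβ0/0 mice. By the study's yields, fewer cells of both subsets were sorted from Aβ0/0 than from WT mice in every replicate. The lists of the 2 genotypes differ in length, so a gene called in WT and not in Aβ0/0 mice is not shown to differ. Only Glp1r and H2-T3, both on chromosome 17, were called in opposite directions. Glp1r, a peptide hormone receptor, was at 3.71, 4.91 and 3.36 TPM in Aβ0/0 cTEC and had no count in Aβ0/0 mTEC, while in WT it had no count in cTEC and 1.91, 0.361 and 0.837 TPM in mTEC. H2-T3, a nonclassical MHC class I gene, was at 28.2, 36.3 and 14.8 TPM in Aβ0/0 cTEC and 1.96, 0.201 and 2.05 TPM in mTEC, and in WT at 0.599, 0.175 and 0.0242 TPM in cTEC and 1.80, 2.18 and 1.51 TPM in mTEC. Neither change of contrast passed (adjusted p = 0.235 for both), and both lost the Aβ0/0 call with any of the 6 libraries left out and in the blocked fit.

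**Figure D5:**
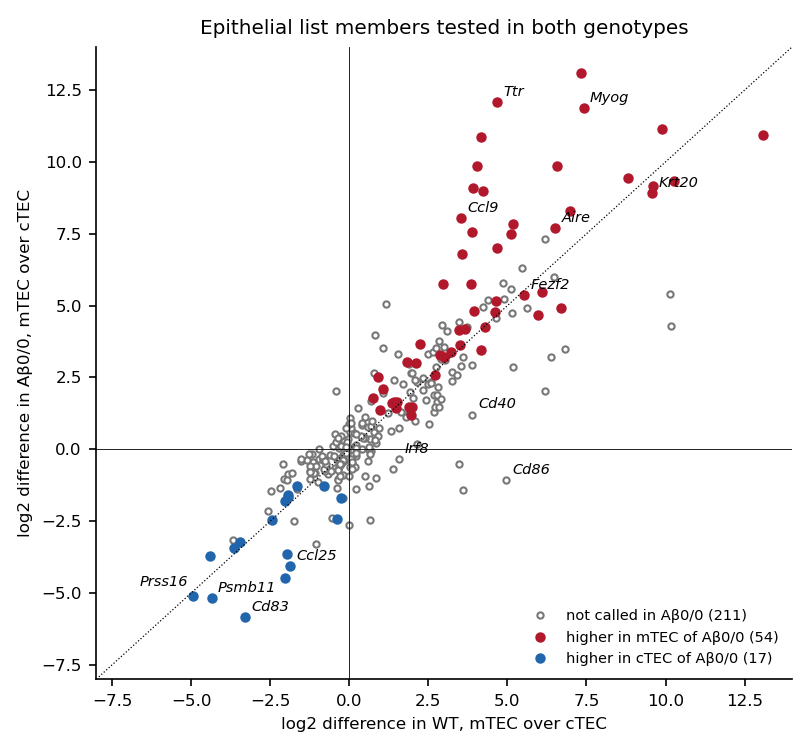
Log2 difference of mTEC over cTEC in WT (horizontal) and Aβ0/0 mice (vertical) for the 282 list members tested in both, red and blue for the 54 and 17 called in Aβ0/0 mice, with the line of equal values dotted. All 71 called members have the same sign in both genotypes, and Cd40, Cd86 and Irf8 lie below the line.

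The test of the change itself, the contrast of Aβ0/0 minus that of WT, called 2 of 19461 genes (0.0103%). Hmga1b, a near-identical copy of Hmga1 whose reads may be split with it, and Ccl9 were those genes, and 402 genes (2.07%) had an unadjusted p under 0.01. Among the 6 markers, the contrast of Ccl25 was wider in Aβ0/0 mice by 2.19 on the log2 scale toward cTEC (unadjusted p = 0.00206, adjusted p = 0.377). In TPM, Ccl25 averaged 2136 in WT cTEC and 550 in WT mTEC. Among further members, Sirt1 (-1.96, 0.00027, adjusted p = 0.266), Ube2c (-2.59, 0.00723, 0.432) and Egfr (1.06, 0.0076, 0.444) had an unadjusted p under 0.01. Sirt1 averaged 17.3 TPM in WT cTEC and 55.0 TPM in WT mTEC, and the latter mean stood above every Aβ0/0 library. The contrast was wider toward mTEC in Aβ0/0 mice for Scgb1a1 (6.72, 0.0065), Ttr (7.38, 0.00835), Ccl22 (5.20, 0.00885) and Cxcl9 (3.28, 0.00941). So it was for the secretoglobin Scgb3a2 (7.65, 0.00828) and the Wnt ligand Wnt11 (6.54, 0.00841). In all of these Aβ0/0 cTEC averaged at most 1.22 TPM, while WT cTEC averaged 0.478 (Ttr) to 14.6 TPM (Scgb3a2). The mTEC mean was higher in Aβ0/0 than in WT mice for Ttr alone, and for Ccl22 it was 7.32 against 30.9 TPM. In the Aβ0/0 mTEC libraries Wnt11 was at 18.0, 0.569 and 0.230 TPM and Scgb3a2 at 15.8, 36.4 and 0 TPM. The contrast changed the other way for 3 antigen genes that were near 0 in Aβ0/0 mTEC. Sftpa1, a lung surfactant protein, was at 22.5, 19.4 and 18.0 TPM in WT mTEC and 0.0392, 0 and 0 TPM in Aβ0/0 mTEC (-10.82, 0.00451). Csn1s1, a milk casein, averaged 5.43 TPM in WT mTEC and 0.0561 TPM in Aβ0/0 mTEC (-6.65, 0.00662), and Prm1, a sperm protamine, averaged 6.18 TPM against no count (-10.87, 0.00382). Sizes fitted against groups at 0 depend on the prior count. None of these 9 genes passed (adjusted p from 0.390 to 0.471). Among genes of other cell types, Rgs5 (3.12, 0.00376), Ngp (-13.45, 0.00183) and Itgax (-15.94, 0.0066) had an unadjusted p under 0.01 and did not pass either (0.390, 0.377 and 0.427). Among the Aβ0/0 libraries only cTEC 2 held counts of Itgax (129), and Ngp had no count in Aβ0/0 mTEC.

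Over all tested genes, listed or not, those with the largest log2 differences were chosen among those called with at least 20 CPM in the higher subset. Toward mTEC these were Tff3, Dppa3, Iglc3, Vnn3, Myog, Lgals2, Actc1 and Scgb1a1. Dppa3, a germ cell and oocyte factor, had no count in cTEC and 86.8, 52.3 and 19.9 TPM in mTEC, at least 339-fold higher (adjusted p = 0.00849). Vnn3, a pantetheinase, had no count in cTEC and 14.2, 15.5 and 15.2 TPM in mTEC, at least 238-fold higher (0.00812, 0.0662 with the block). Iglc3, an immunoglobulin light chain constant region of B lineage cells, had no count in cTEC and 83.8, 96.6 and 119 TPM in mTEC, at least 311-fold higher (0.00589). In these 3 no Aβ0/0 cTEC library held a count, which bounds the level and does not show absence. Lgals2, an intestinal galectin, was at least 392-fold higher in mTEC (0.00596).

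Toward cTEC the genes chosen in the same way included Kcna1, Srpx, Cys1, Ogn, Ednrb, Slc2a12 and Col8a2. Kcna1, a voltage-gated potassium channel, was at 8.55, 8.54 and 12.4 TPM in cTEC with no count in mTEC, at least 202-fold higher in cTEC (adjusted p = 0.00865, 0.0662 with the block). Ogn, the matrix proteoglycan osteoglycin, was at 33.5, 30.1 and 34.4 TPM in cTEC and 0, 0.0429 and 0.036 TPM in mTEC, at least 529-fold higher (0.00208). Srpx was at 26.9, 14.4 and 24.5 TPM in cTEC and 0.049, 0 and 0 TPM in mTEC, at least 269-fold higher (0.00445). Srpx, Cys1 (at least 243-fold higher, 0.00494), Ogn and Col8a2, a collagen chain (-7.15 ± 1.01, 0.00968), were called whichever library was left out, and the fibroblast and mural sum given above, though not Rgs5 within it, was higher in cTEC as well. The calls of further genes depended on single libraries, as for Ednrb, the endothelin B receptor (-8.30, 0.0181, 0.0725 with the block, up to 0.0756 without cTEC 1), and Slc2a12, a sugar transporter (-7.34, 0.0184, up to 0.0848 without cTEC 1).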

How the data were processed

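Poly-A RNA of sorted TEC was sequenced as paired reads. Per the labels, reads were handled with bcl2fastq 2.20.0, Trim Galore and kallisto 0.43 on mm10, and the transcript annotation was not given in the sources used here. Both the deposited estimated counts and the deposited TPM came from kallisto, which shares reads among similar transcripts, so near-identical genes are uncertain. A table of regularised log2 values that the authors made with DESeq2 was not used.

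Of 109282 transcripts, 107987 were matched to GENCODE M21 and summed to 34547 genes, and 1295 were left out. Counts were rounded to whole numbers, filtered with filterByExpr, normalised with TMM and tested with edgeR 4.0.16 in R 4.3.3 (quasi-likelihood test, two-sided, Benjamini-Hochberg adjustment over all tested genes, called at an adjusted p under 0.05) on the 6 Aβ0/0 libraries. WT libraries were fitted separately, and the change of the contrast on all 12 libraries. The SE is the log2 difference divided by the square root of the test statistic. Folds against a subset with at most 3 counts in every library were computed from 3 counts and given as lower bounds, covering counting error only. Single sums were compared with exact permutation tests (scipy 1.17.1).

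Alternatives were RLE factors, DESeq2 1.42.0, no filter or a mean of at least 10 counts, the fit on 12 libraries, a test against a 2-fold change, each library left out, and the replicate number as a block. The study lists cTEC and mTEC yields together under each replicate number of a sort, so libraries of the same number and genotype were taken as 1 pool of mice, an assumption, since no source used here ties those numbers to the library titles. Deviations from the subset means correlated at 0.314, 0.149 and 0.041 for libraries of the same number and at -0.212 to 0.0405 for others. The fitting steps were run on simulated counts as a check of the code only, which does not bear on pairing or cell composition.

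The groups were taken from the labels. The members and gene lists were chosen with earlier results of these data known, so no count over a list is independent evidence. Genes named were the 6 markers, H2-Ab1 and the sort genes, up to 6 called members of each list in each direction by size of difference with uncalled members whose role a sentence is about, the 8 genes with the largest difference in each direction, genes with a called change between genotypes, and list members with an unadjusted p under 0.01 for it. Results of some of these genes are not reported here. Ccl5, Glp1r, H2-T3 and the genes of other cell types were named after their values were seen.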

Additional observations from a re-analysis of the deposited data

Results flagged for a closer look

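The contrast of mTEC over cTEC differed between Aβ0/0 and WT mice for 2 genes by the test of the difference itself (edgeR on 12 libraries). Hmga1b, a high mobility group gene nearly identical to Hmga1, was at 59.7, 44.5 and 68.2 TPM in Aβ0/0 cTEC and 24.7, 15.2 and 21.9 TPM in Aβ0/0 mTEC. In WT it had no count in cTEC and 2.52, 1.93 and 0.986 TPM in mTEC, so both Aβ0/0 subsets stood above every WT library. The fitted change of contrast was -10.25 on the log2 scale (adjusted p = 0.00596), a size that depends on the prior count because WT cTEC was at 0, and in Aβ0/0 mice alone the log2 difference of -1.28 did not pass (adjusted p = 0.0552). Because the copies are nearly identical, the split of reads between Hmga1b and Hmga1 is uncertain.

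Ccl9 was at 0.225, 0.189 and 0.307 TPM in Aβ0/0 cTEC and 215, 53.4 and 82.2 TPM in Aβ0/0 mTEC, against 2.51, 9.55 and 2.93 TPM in WT cTEC and 67.8, 64.1 and 59.4 TPM in WT mTEC. Its contrast was wider in Aβ0/0 mice by 4.52 on the log2 scale (adjusted p = 0.0321). The mTEC levels of the genotypes overlapped, and the cTEC levels did not. Leaving out any 1 of 9 of the 12 libraries ended the call, with an adjusted p of up to 0.266 (without WT mTEC 1), and with the replicate number as a block neither gene passed (adjusted p = 0.178 for both).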

How the results depend on the processing

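The number of genes called between the Aβ0/0 subsets depended on the test and on single libraries more than on scaling. From 541 higher in mTEC and 337 higher in cTEC, DESeq2 gave 1674 and 1082, the fit on 12 libraries 1071 and 748, the test against a 2-fold change 236 and 97, and leaving out 1 library 219 to 271 (mTEC 2 and cTEC 1 left out) and 101 to 218 (cTEC 3 and mTEC 1 left out). With the replicate block (the number taken as a pool of mice), 373 and 257 were called. Among distinct epithelial list members, 54 and 17, DESeq2 called 110 and 34, the fit on 12 libraries 88 and 27, the 2-fold test 31 and 9, and leaving out 1 library 28 to 34 and 8 to 12. The 13 cortical calls became 7 to 10 and the 12 medullary calls 7 to 9 with 1 library left out. The medullary list had 1 call toward cTEC, Trp63, with DESeq2 and on 12 libraries. In WT the 1645 calls toward cTEC ranged from 795 to 2734 with 1 library left out. The 2 genes whose contrast changed between genotypes became 406 with DESeq2, 0 with the block and 1 to 18 with 1 library left out (18 without Aβ0/0 mTEC 1, 6 without Aβ0/0 mTEC 2).

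H2-Ab1, with a log2 difference of 0.00, changed sign to -0.0016 (RLE), -0.018 (DESeq2), -0.017 (block), -0.050 (no filter) and -0.037 (mean of at least 10 counts), and ranged from -0.260 to 0.215 with 1 library left out. Besides the named genes whose blocked value or blocked count stands in the report, the replicate block changed no other call of a named gene. The 6 markers kept direction and call under every alternative. With 3 pools per subset, a two-sided exact test cannot go below 0.1. Cell composition of the sorts was not measured, and the cause of each dependence was not tested.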
